A study of Rattus norvegicus with 10 samples.

Results

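Elastic fibres give arteries their recoil. The genes for their parts and for matrix proteins that bind them were followed in rat cells transfected with normal or mutated BMPR2: elastin (Eln), fibrillin 1 (Fbn1), the microfibril glycoprotein Mfap5, 5 fibulins (Fbln1, Fbln2, Fbln5, Efemp1 and Efemp2), fibronectin (Fn1) and Ccdc80. All probe sets that the platform annotation assigns to 1 of these genes and to no other were taken, which gave 14 probe sets for 10 genes, out of 14217 genes named by the array. The cells were labelled A7r5, which is a line grown from the smooth muscle of embryonic rat aorta, and their total RNA was hybridised to 10 Affymetrix rat arrays, 2 per group. In 3 groups the cells stably carried BMPR2 with a mutation. These were the KD mutant, C994T in the kinase domain, the ED mutant, T354G in the extracellular ligand-binding domain, and the CD mutant, 2579-2580delT in the cytoplasmic tail. A further group carried wild-type human BMPR2, and the last an empty vector, by its description and transfection label, although its titles and source names call these cells native A7r5. All cells were kept in normal oxygen at about 50% confluence in 10% serum. The labels do not say whether each transfected line was 1 clone or a pool, nor whether paired arrays stem from different cultures. The p-values therefore reflect array-to-array spread that may be technical.

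BMPR2 binds bone morphogenetic proteins together with a type I receptor and signals through Smad proteins, and inherited mutations in it cause pulmonary arterial hypertension, in which the walls of small lung arteries are remodelled. An elastic fibre forms when tropoelastin is laid onto a scaffold of fibrillin microfibrils and cross-linked by lysyl oxidases. Fibulins guide that step: fibulin 4, the product of Efemp2, and fibulin 5 bind tropoelastin and the cross-linking enzymes, while fibulin 2 binds both fibrillin and elastin in the vessel wall. Fibronectin is laid down early and serves as a template for microfibrils.

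Promoter sequences are shown for Fbln2 and Ccdc80, the 2 genes called in the ED mutant, and for Efemp2, which was not called. The genes were chosen after their values were seen. Of the members bright enough to test without the KD mutant, these 3 had all probe sets lowest on the 2 ED mutant arrays. That order was taken among the 8 arrays other than the KD mutant, and how many of all probe sets share it was not counted. The sequences are the 250 bases before the annotated start in the RefSeq annotation of rat assembly GRCr8, read 5′ to 3′ on the gene's strand. The promoter set used here held 7 of the 10 genes and lacked Eln, Fbln1 and Fn1. Fbln2 lies on the plus strand (chr4:125261409-125261658), as does Efemp2 (chr1:212211472-212211721), and Ccdc80 on the minus strand (chr11:69224845-69225094). Capitals mark GGCGCC, a palindrome known from BMP-responsive elements bound by Smad proteins.
Fbln2: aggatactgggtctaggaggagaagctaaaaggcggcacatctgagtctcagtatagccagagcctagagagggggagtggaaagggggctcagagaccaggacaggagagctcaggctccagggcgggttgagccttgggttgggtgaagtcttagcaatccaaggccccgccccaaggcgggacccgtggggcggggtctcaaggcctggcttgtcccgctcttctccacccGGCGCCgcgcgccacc
Efemp2: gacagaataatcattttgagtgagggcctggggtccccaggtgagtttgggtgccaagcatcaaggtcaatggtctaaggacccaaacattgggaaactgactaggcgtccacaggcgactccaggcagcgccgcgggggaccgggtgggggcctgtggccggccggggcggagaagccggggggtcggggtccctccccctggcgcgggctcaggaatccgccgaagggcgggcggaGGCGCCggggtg
Ccdc80: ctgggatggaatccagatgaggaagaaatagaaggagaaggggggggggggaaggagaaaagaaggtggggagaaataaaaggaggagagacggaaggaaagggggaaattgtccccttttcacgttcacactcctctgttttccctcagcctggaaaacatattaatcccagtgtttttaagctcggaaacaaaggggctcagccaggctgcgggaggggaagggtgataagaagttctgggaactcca

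The motif GGCGCC was found once before Fbln2, starting 16 bases upstream of the start, and once before Efemp2, 12 bases upstream. Ccdc80 had no match in its window. Among the other members in the table, Fbln5 held 1 copy, 179 bases upstream. Of all 33469 promoter windows of this length, 8.7% held GGCGCC. The Smad motif CAGAC, searched on both strands like the other motifs, was absent from the 3 windows printed and present in 42.9% of all. It occurred 4 times before Efemp1, 2 times before Fbln5 and 1 time before Fbn1. The AP-1 motif TGANTCA occurred before Efemp1 alone among the 7 members (6.3% of all windows), and neither TATAAA (12.9%) nor a CArG box (1.5%), the site of serum response factor, occurred before any of the 7. No matched motifs overlapped in the 3 windows printed. These are matches of letters, not binding sites, and GC content differed, at 64.0% for Fbln2, 68.0% for Efemp2 and 50.4% for Ccdc80.

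All values are log2 summaries per probe set made with RMA, as the authors deposited them. Tests were run on the 22502 probe sets with at least 2 of 10 arrays at or above log2 4.82, the 40th percentile of all values (the filter level). A probe set is called changed where limma's p, adjusted over all of them, is under 0.05. Of the 14 probe sets, 12 were tested. The single probe set of Efemp1, the gene of fibulin 3, read 2.42 to 3.20 and the second one of Fbln1 (1385452_at) 2.87 to 3.74, under that level on all arrays. Mfap5 and both probe sets of Fbn1 reached it on the KD mutant arrays only, and read 3.01 to 4.05 on the other 8.

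Both arrays that carry the KD mutant label were unlike the others. Each correlated with the 8 remaining arrays at a Pearson r of 0.71 to 0.72 over all probe sets, whereas those 8 correlated among themselves at 0.99 to 1.00. The medians of the KD mutant arrays were 4.94 to 4.95, against 5.32 to 5.36 on the others. Their poly-A control transcripts averaged 6.64 to 7.26, against 7.49 to 8.62. The part of these in the KD mutant differences was not tested. Most markers of smooth muscle and fibroblasts were higher on the KD mutant arrays and all tested epithelial ones lower. Against wild type, 4 of 7 tested smooth muscle markers rose and 1 fell, 4 of 5 fibroblast markers rose and 1 fell, and 5 of 5 epithelial markers fell. Of all tested probe sets, 34.5% rose and 55.1% fell in that comparison, so being changed was common. Col1a2, a chain of type I collagen, averaged 13.62 on the KD mutant arrays and 3.86 to 3.89 in the other groups, Tagln, which binds actin in contractile cells, 11.33 against 4.91 to 5.10, and Cdh1, the epithelial cadherin, 5.87 against 9.24 to 10.25. The markers that went against their lists were Smtn, of smooth muscle, at 8.34 against 10.34 to 10.46, and Pdgfra, of fibroblasts, at 4.25 against 5.40 to 5.66, while Myh11 and Synpo2 did not pass (adjusted p = 0.284 and 0.841). Over 6 fibroblast markers the mean level was 8.25 to 8.41 per array in the KD mutant and 4.67 to 4.89 elsewhere, and over 9 smooth muscle markers 7.21 to 7.39 and 5.69 to 5.83. Of the defining smooth muscle genes, Cnn1 was under the filter level in the other 4 groups, and Myocd and Lmod1 in all 5. The part of cell identity in the KD mutant values was not tested. On the other 8 arrays Smtn was bright and Tagln near the filter level. Of the epithelial markers, Cdh1 was bright there, as were the keratin genes Krt18, Krt19 and Krt8. Their group means were 11.29 to 11.81, 9.08 to 9.80 and 8.27 to 8.94. Cldn7 was near the filter level, at 4.94 to 5.16, and Epcam and Cldn4 lay under it. In bulk RNA, fewer cells of a type and less RNA per cell cannot be told apart.

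**Figure D1:**
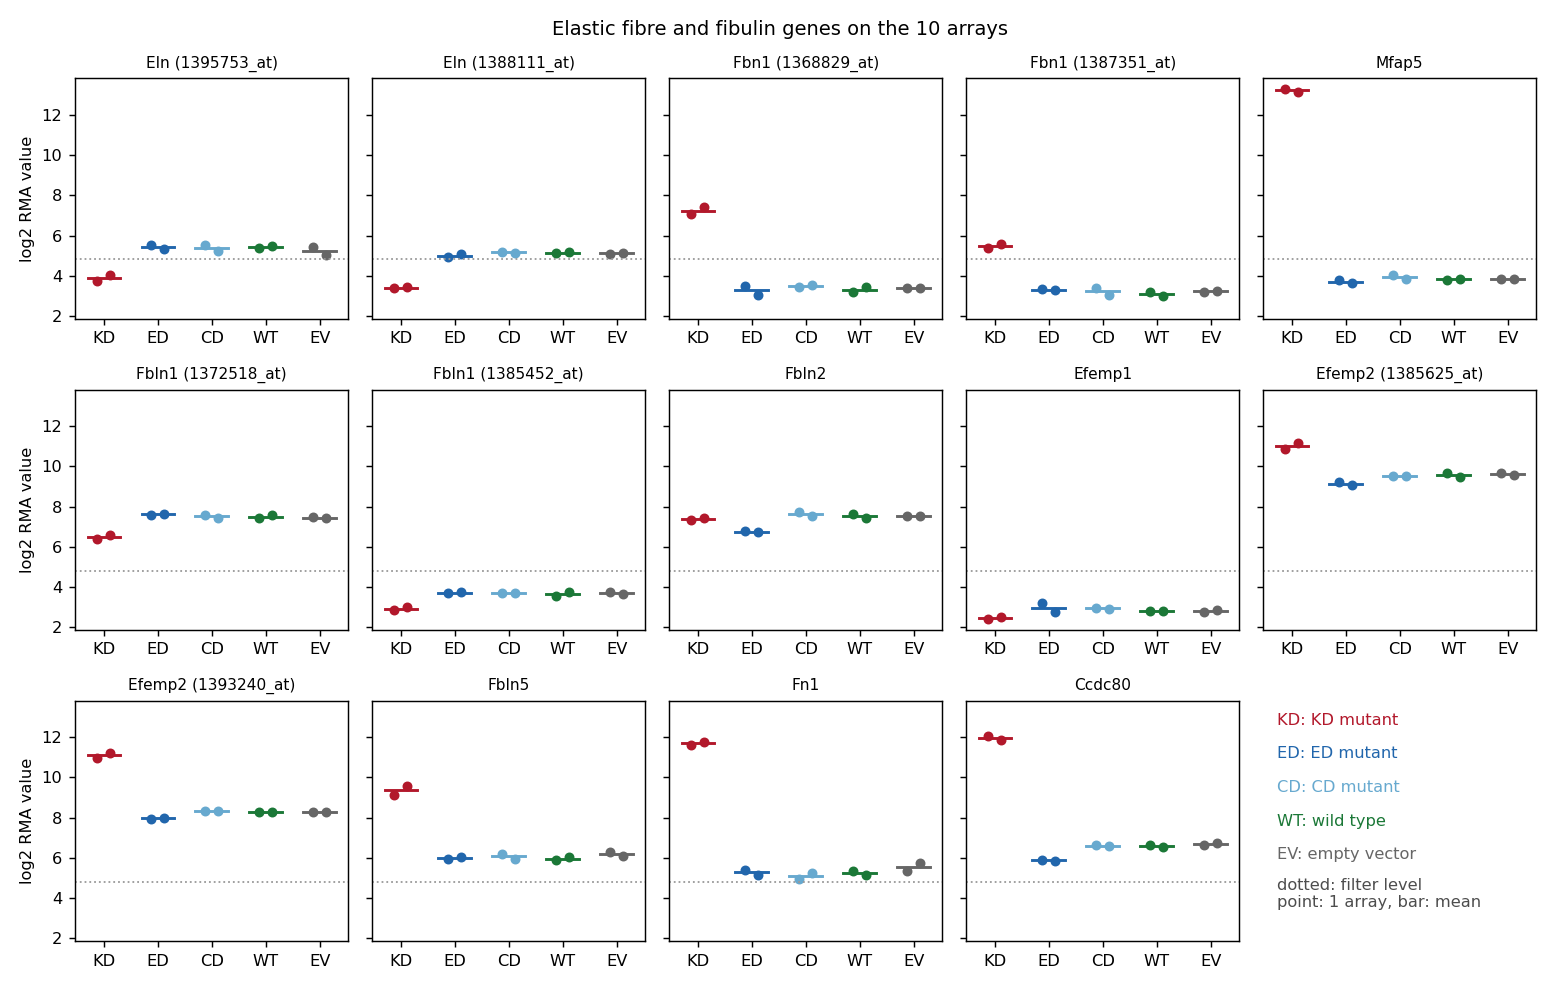
Log2 RMA values (y axis) of the 14 probe sets by group (x axis), with 1 point per array, a bar at the mean of 2 arrays and a dotted line at the filter level of 4.82. Mfap5, Fn1 and Ccdc80 lie highest on the KD mutant arrays, at 13.21, 11.69 and 11.95 on average, while both Eln probe sets lie below the dotted line there and above it elsewhere.

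Fibulin 2 and Ccdc80 fell in the ED mutant. Fbln2 read 6.79 and 6.72 on the ED mutant arrays, against 7.74 and 7.52 in the CD mutant, 7.61 and 7.43 in wild type and 7.54 and 7.51 with empty vector. Both ED mutant arrays thus lay below all other arrays, the KD mutant ones included, which read 7.35 and 7.42. Against wild type the ED mutant was 0.77 lower on the log2 scale, a 1.70-fold difference (SE 0.11, 95% interval -1.01 to -0.53, adjusted p = 0.0245).

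Ccdc80, a secreted protein that binds matrix, was likewise lowest on the ED mutant arrays among the 8. It read 5.90 and 5.85 in the ED mutant, against 6.64 and 6.57 in the CD mutant, 6.66 and 6.56 in wild type and 6.67 and 6.73 with empty vector. The highest ED mutant array lay 0.65 below the lowest of these other 6. Against wild type it was 1.66-fold lower, a log2 difference of -0.73 with an SE of 0.11 (adjusted p = 0.0245). These 2 probe sets, both lower, were the changed members out of 12 tested, while 0.164% of all tested probe sets changed in this comparison and 0.0267% were lower.

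The fall was also seen against the other groups, whose comparisons share the 2 ED mutant arrays and are not independent. Against the CD mutant, Fbln2 was 1.84-fold lower (log2 difference -0.88, adjusted p = 0.00551) and Ccdc80 1.66-fold lower (-0.73, adjusted p = 0.0109). Against empty vector, the differences were -0.77 for Fbln2 (adjusted p = 0.0107) and -0.83 for Ccdc80 (adjusted p = 0.00484). In each of these comparisons the same 2 of 12 members changed, both lower, beside 0.351% of all tested probe sets changed and 0.107% lower against the CD mutant, and 0.529% changed and 0.16% lower against empty vector. With the KD mutant arrays left out of filter and fit, both genes passed in the 3 comparisons, with adjusted p from 0.00283 to 0.0209.

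With 1 array left out, its group has 1 array, which is assumed to vary like the other groups. In such fits, with any 1 array of either group left out, both calls were lost against wild type (adjusted p 0.169 to 0.362) and against empty vector (adjusted p 0.0593 to 0.155). Against the CD mutant, Fbln2 passed without CD mutant replicate 2 (adjusted p = 0.0254) and was lost without the other CD mutant array or either ED mutant array, as Ccdc80 was in all 4 cases. Over these fits with 1 array fewer, the log2 difference stayed between -0.99 and -0.68 for Fbln2 and between -0.86 and -0.68 for Ccdc80.

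**Figure D2:**
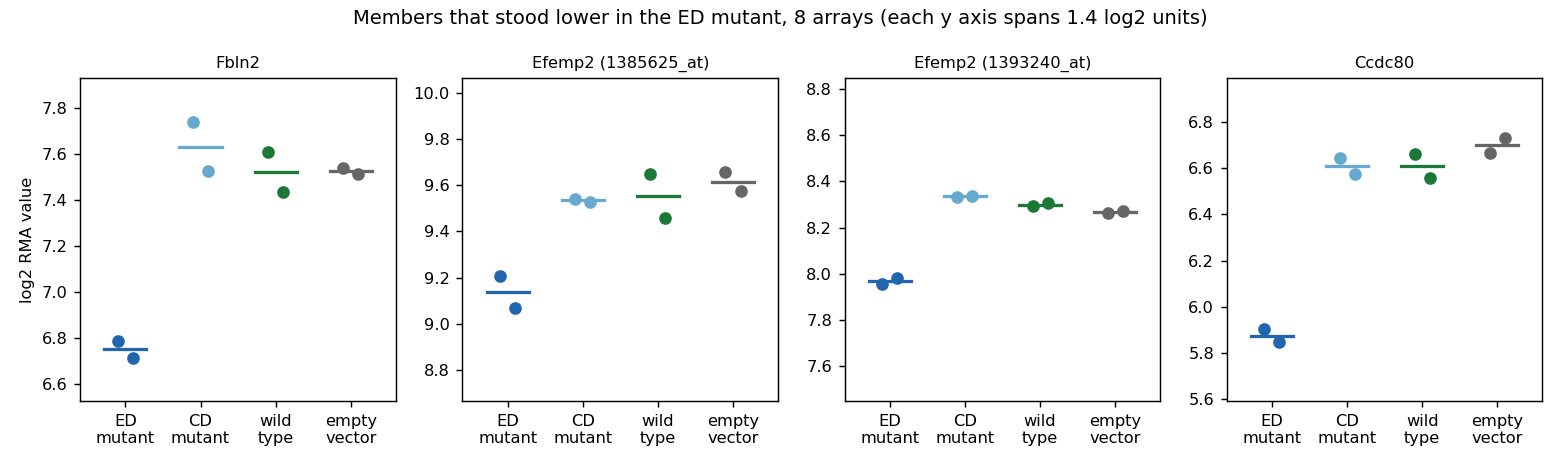
Log2 RMA values (y axis, each spanning 1.4 units) of Fbln2, the 2 probe sets of Efemp2 and Ccdc80 on the 8 arrays other than the KD mutant, with 1 point per array and a bar at the mean of each group (x axis). The 2 ED mutant points lie below the other 6 in each panel, Fbln2 at 6.79 and 6.72 against 7.43 or more.

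Efemp2 encodes fibulin 4, which brings lysyl oxidase to tropoelastin. One probe set (1385625_at) read 9.21 and 9.07 in the ED mutant, against 9.54 and 9.53 in the CD mutant, 9.65 and 9.46 in wild type and 9.66 and 9.57 with empty vector. The other (1393240_at) read 7.96 and 7.98 in the ED mutant, against 8.33 and 8.34, 8.29 and 8.31, and 8.26 and 8.27 in the CD mutant, wild type and empty vector groups. By both, the ED mutant arrays lay below all others, an order whose share over all probe sets was not counted. The differences from wild type were -0.41 and -0.33 and did not pass the test (adjusted p = 0.363 and 0.419), although their 95% intervals, -0.67 to -0.15 and -0.56 to -0.11, did not include 0. Against empty vector probe set 1385625_at differed by -0.48 (adjusted p = 0.121), which passed when the KD mutant arrays were left out of filter and fit (adjusted p = 0.0468) or with an intensity trend and robust variance (adjusted p = 0.0124).

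The remaining members did not pass in any comparison with the ED mutant. Elastin, the core of the fibre, read 5.55 and 5.31 in the ED mutant and 5.38 and 5.49 in wild type by one probe set (1395753_at), and the other read 4.92 and 5.11 against 5.12 and 5.18. Fbln1, found within elastic fibres, read 7.59 and 7.64 in the ED mutant and 7.43 and 7.56 in wild type, a difference of 0.12 (95% interval -0.12 to 0.36). For Fbln5, which tethers tropoelastin to microfibrils and integrins, the difference was 0.02 (-0.31 to 0.35), and for Fn1 it was 0.05 (-0.31 to 0.40). These intervals reach from -0.31 to 0.40, so smaller changes than that were not resolved. Mfap5 and Fbn1 were under the filter level on these arrays, so their differences were not measured exactly.

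Of the marker lists, the epithelial one alone had called members in the ED mutant comparisons. The mean level of 7 epithelial markers was 7.53 to 7.57 on the ED mutant arrays, against 7.20 to 7.24 in the CD mutant, 7.27 to 7.32 in wild type and 7.25 to 7.26 with empty vector, without overlap. How often other sets of genes show such an order was not counted. Cdh1 rose against empty vector (10.25 against 9.24, adjusted p = 0.00364), and Krt18 and Krt19, keratins of simple epithelia, rose against the CD mutant by 0.52 and 0.72 (adjusted p = 0.0482 and 0.0132). Of all tested probe sets, 0.529% changed against empty vector and 0.351% against the CD mutant, in either direction. None of the 5 epithelial markers that were tested passed against wild type, where the lowest adjusted p was 0.112. Cldn7 did not pass and differed the other way in all 3 comparisons, by -0.16 against wild type, -0.15 against the CD mutant and -0.22 against empty vector, and Cldn4 and Epcam were under the filter level. The 6 fibroblast markers averaged 4.70 to 4.82 per array in the ED mutant and 4.77 to 4.79 in wild type, and none of 5 tested changed. Poly-A control transcripts averaged 8.24 to 8.28 in the ED mutant, 8.56 to 8.62 in the CD mutant, 7.49 to 8.34 in wild type and 7.76 to 8.02 with empty vector. The part of these in the falls of Fbln2 and Ccdc80 was not tested.

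**Figure D3:**
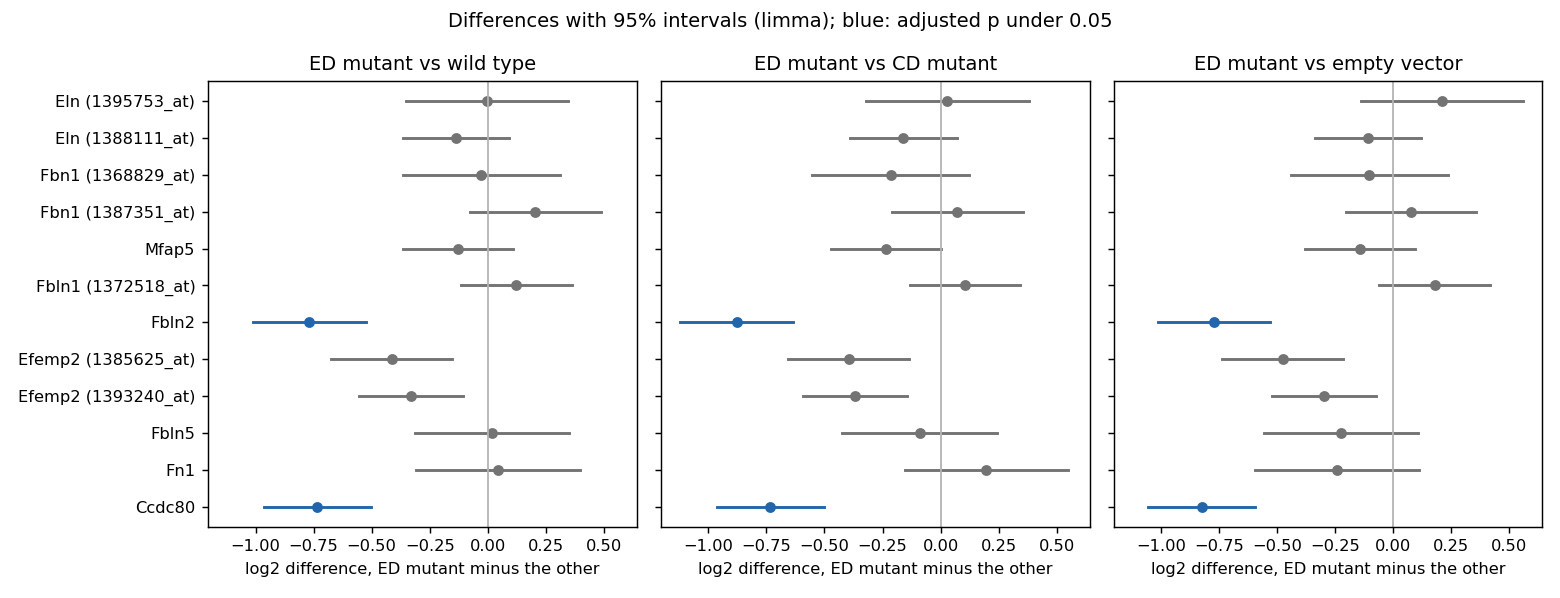
Log2 differences (x axis) of the 12 tested probe sets (y axis), ED mutant minus wild type, CD mutant or empty vector, with 95% intervals from limma and blue for an adjusted p under 0.05. Fbln2, at -0.77 against wild type, and Ccdc80, at -0.73, are blue in all 3 panels, and both Efemp2 intervals lie left of 0.

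The likeness of the 2 genes rested on the ED mutant arrays. Over the 8 arrays other than the KD mutant, Fbln2 and Ccdc80 had a Pearson correlation of 0.97, and over the 6 without the ED mutant one of 0.28. By the highest correlation over the same 8 arrays, the 5 named genes most like Fbln2 were Dnajc13 (0.98), Tafa5 (0.98), C1qbp (0.98), Baz1b (0.97) and Ccdc80 (0.97). Those most like Ccdc80 were Mrpl3 (0.99), Dnajc13 (0.98), Ran (0.98), Phgdh (0.98) and Dnajc19 (0.97). All stood lower in the ED mutant than in wild type, which follows from picking them by correlation with probe sets that fell there. Apart from Ccdc80 none passed that comparison (adjusted p 0.135 to 0.673). Dnajc13, named for both, averaged 5.99 in the ED mutant against 6.47 in wild type. These correlations describe arrays that share groups and normalization.

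No member passed the test with wild-type BMPR2 or the CD mutant, set against each other or against empty vector. Against empty vector, 0 of 12 members changed with wild type and 0 had an unadjusted p under 0.05 in limma, while 0.0133% of all tested probe sets changed. The differences ran from -0.29 for Fn1, which averaged 5.25 ± 0.16 with wild type and 5.54 ± 0.26 with empty vector (SD, n = 2; adjusted p = 0.861), to 0.21 for Eln (1395753_at). In the CD mutant against wild type, 0 of 12 changed and 0 had an unadjusted p under 0.05, with differences from -0.15 to 0.19. Over all tested probe sets 0% changed in that comparison and 784 had an unadjusted p under 0.05. Fbln2 and Ccdc80 differed from wild type by 0.11 and -0.00 in the CD mutant, with 95% intervals of -0.13 to 0.35 and -0.23 to 0.23.

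By group mean, fibronectin stood lowest in the CD mutant among the 4 groups other than the KD mutant. It read 4.93 and 5.28 there, which overlapped wild type (5.37 and 5.14) and the ED mutant (5.43 and 5.17). Against empty vector, at 5.36 and 5.73, the CD mutant differed by -0.44, which did not pass (95% interval -0.79 to -0.09, adjusted p = 0.452). Fn1 was the 1 member of 12 with an unadjusted p under 0.05 in that comparison. None of the 12 changed, beside 0.111% of all tested probe sets.

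On the arrays labelled KD mutant, Fbn1, Mfap5, Efemp2, Fbln5, Fn1 and Ccdc80 were higher than in wild type, while Eln and Fbln1 were lower, so the fibulins went both ways. Of 12 tested, 8 probe sets rose and 3 fell, where 34.5% of all tested probe sets rose and 55.1% fell. In either direction 11 of 12 changed beside 89.6% of all tested probe sets, so the number of changed members is near the background. Mfap5 and Fbn1 entered the test only because they were bright on these arrays, and Eln only through the other 8. The filter thus fixed the direction of these genes, and their adjusted p is no separate support for it.

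Mfap5, which binds fibrillin in microfibrils, read 13.27 and 13.16 in the KD mutant and 3.81 and 3.86 in wild type. As the wild type arrays were under the filter level, the log2 difference of 9.38 (adjusted p = 1.37e-13) was not measured exactly, and the KD mutant mean lay 8.40 above that level. Fbn1, the backbone of the microfibril, read 7.09 and 7.40 against 3.19 and 3.44 by one probe set (1368829_at) and 5.40 and 5.57 against 3.18 and 3.01 by the other (1387351_at). Both rose, and the KD mutant means lay 2.43 and 0.67 above the filter level.

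Fn1 read 11.60 and 11.77 in the KD mutant and 5.37 and 5.14 in wild type, a log2 difference of 6.43 with an SE of 0.16 (adjusted p = 7.38e-12). Ccdc80 read 12.04 and 11.85 against 6.66 and 6.56, a difference of 5.34 with an SE of 0.11 (adjusted p = 1.49e-12). The gene that fell in the ED mutant together with Fbln2 was thus among the largest rises of the members here. Fbln2 read 7.35 and 7.42 in the KD mutant and 7.61 and 7.43 in wild type and did not pass (difference -0.14, adjusted p = 0.249). Its direction depended on scaling: it was called lower after quantile normalization (-0.68, adjusted p = 8.41e-05) and higher after centring each array on its median (0.26, adjusted p = 0.0462).

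Fbln5 read 9.13 and 9.59 in the KD mutant and 5.90 and 6.03 in wild type, a rise by 3.40. The Efemp2 probe sets rose by 1.46 and 2.80, to means of 11.01 and 11.10 in the KD mutant against 9.55 and 8.30 in wild type, so they gave the same direction and different sizes. Eln read 3.77 and 4.04 in the KD mutant, below the filter level, against 5.38 and 5.49 in wild type, by probe set 1395753_at, and fell by 1.53 (adjusted p = 1.69e-06). Its other probe set fell by 1.73, at 3.38 and 3.46 against 5.12 and 5.18. As the KD mutant values were under the filter level, neither size was measured exactly. Fbln1 read 6.38 and 6.58 in the KD mutant against 7.43 and 7.56, and fell by 1.02 (adjusted p = 2.17e-06). The median of all tested probe sets lay at -0.56 in this comparison, which the fall of Fbln1 exceeded. Eln and Fbln1 were also called lower, and the 8 rises also called, under quantile normalization and under centring, with Fbln1 between -1.34 and -0.62 over all settings run.

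**Figure D4:**
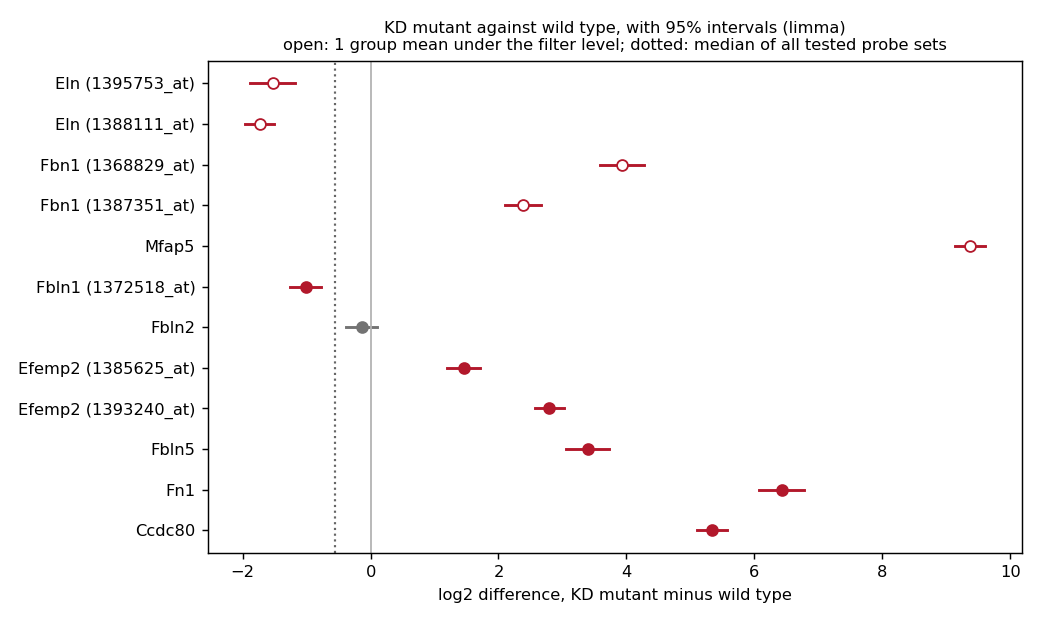
Log2 differences (x axis) of the 12 tested probe sets (y axis), KD mutant minus wild type, with 95% intervals from limma, open circles where a group mean lies under the filter level, grey for an adjusted p over 0.05 and a dotted line at the median of all tested probe sets, -0.56. Mfap5 lies farthest right at 9.38, and both Eln probe sets and Fbln1 lie left of the dotted line.

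Partner genes of the fibre, in 5 lists with 1 probe set per gene, gave no change without the KD mutant. Of the tested probe sets of a gene, the one with the highest mean over all 10 arrays was taken, the KD mutant arrays included. Other probe sets of these genes were not followed. In the 6 comparisons among the other 4 groups, 0 of 43 tested partner genes changed, and the list medians ran from -0.11 to 0.22. Of all tested probe sets, 0% to 0.529% changed in these comparisons, so the lack of calls is near the background. In the ED mutant against wild type, the median was -0.00 for 13 tested microfibril and elastic fibre partners, 0.13 for 6 cross-linking enzymes, 0.02 for 8 matrix receptors, -0.01 for 11 elastin-degrading enzymes and inhibitors and -0.02 for 5 genes of the elastin receptor complex and chaperones, beside 0.00 over all tested genes. The lowest adjusted p among them in that comparison was 0.365.

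In the KD mutant against wild type, nearly all partner genes changed, as did 89.6% of all tested probe sets (34.5% higher and 55.1% lower). The counts below are read beside those shares, which are over probe sets, while the lists hold 1 probe set per gene. Shares over genes taken in the same way were not counted, so the match is not exact. A gene that reached the filter level on the KD mutant arrays only had to be higher there, and one that reached it on the other 8 only had to be lower. Of the 6 cross-linking enzymes, 5 rose and 1 fell, with a median of 4.69 beside -0.42 over all tested genes. Lox, the main enzyme that cross-links elastin and collagen, averaged 10.99 ± 0.09 in the KD mutant and 3.48 ± 0.07 in wild type (SD, n = 2; adjusted p = 5.91e-13), and Loxl2 9.47 against 4.05. Both reached the filter level on the KD mutant arrays only, where they lay 6.17 and 4.65 above it, so their differences were not measured exactly. Among the 4 that reached it on both sets of arrays, 3 rose and 1 fell. Loxl1, needed for elastic fibre upkeep, averaged 11.45 in the KD mutant against 5.30, Loxl3 rose by 3.95, and Atp7a, which supplies copper to these enzymes, fell by 0.65.

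Of the 13 microfibril partners, 8 rose and 4 fell, with a median of 1.2. The 9 that reached the filter level on both sets of arrays had 7 rises and 1 fall. The small proteoglycan gene Bgn averaged 11.27 in the KD mutant and 5.09 in wild type, and Vcan and Ltbp2 rose by 4.36 and 3.87. Ltbp1, which stores latent TGF-beta on microfibrils, averaged 9.80 against 3.49, and as it reached the level on the KD mutant arrays only, its difference was not measured exactly. The 3 genes that reached it on the other 8 only were all lower, among them Mfap2, a relative of Mfap5 chosen after its values were seen, at 4.26 against 5.80.

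Of the 8 matrix receptors, 6 rose and 2 fell, with a median of 2.45. The 6 that reached the filter level on both sets of arrays had 5 rises and 1 fall. Itgav, the integrin chain that pairs in receptors for fibronectin and fibrillin, averaged 9.66 in the KD mutant and 5.94 in wild type. Itgb5, a chain that pairs with it, rose by 3.41, and the syndecan genes Sdc4 and Sdc2 by 3.99 and 2.96.

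The 11 elastin-degrading enzymes and inhibitors, with 4 rises, 6 falls and a median of -0.86, were near the shares over the whole array. Of the 6 falls, 5 were in genes that reached the filter level on the other 8 arrays only. Timp1, an inhibitor of metalloproteinases, averaged 12.07 in the KD mutant against 5.29 in wild type, and Timp2 13.51 against 11.93. Ctsl, a lysosomal protease, rose by 5.13. Serpina1, whose product inhibits neutrophil elastase, averaged 3.57 against 5.90, a fall not measured exactly.

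The 5 genes of the elastin receptor complex and chaperones had 4 rises and 1 fall, and 3 rises and 1 fall among the 4 that reached the filter level on both sets of arrays. Fkbp10, a chaperone, rose by 3.37, and Ctsa and Glb1, partners in the complex, by 3.98 and 3.10. Serpinh1, the collagen chaperone, averaged 12.88 in the KD mutant against 3.62 in wild type, and reached the level on the KD mutant arrays only, 8.06 above it. Neu1, the sialidase of the complex, was the 1 that fell, to 7.85 in the KD mutant against 9.27.

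**Figure D5:**
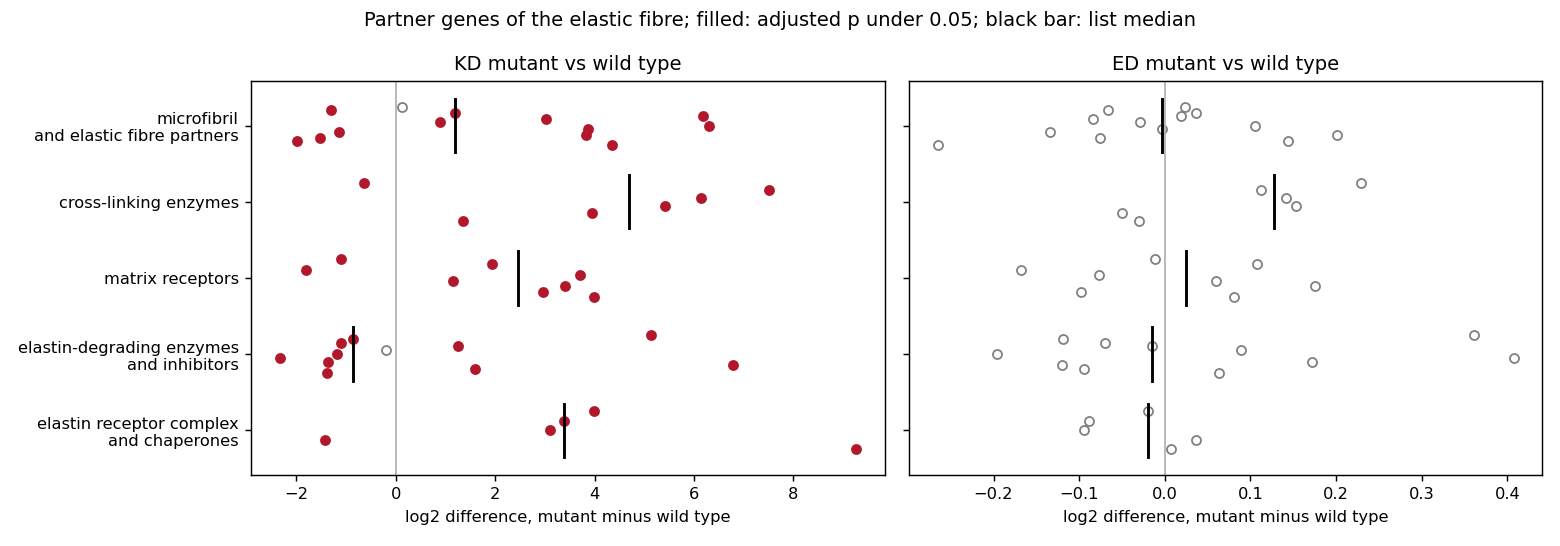
Log2 differences (x axis) of the tested partner genes by list (y axis), KD mutant minus wild type at left and ED mutant minus wild type at right, on different x scales, with filled points for an adjusted p under 0.05 and a black bar at each list's median. At left the cross-linking enzymes have a median of 4.69, and at right no point is filled.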

How the data were processed

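Total RNA of 10 samples labelled A7r5 was hybridised to Affymetrix rat arrays. Per the submitters' processing notes, the authors made the deposited log2 values with RMA; no source used here gives its version or says if the arrays were normalized jointly. RMA compresses differences at low signal, and no detection calls were used. Per the labels, each group has 2 arrays.

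Of 31099 probe sets, 57 controls were left out of tests. The platform annotation names 1 gene for 20826, several for 436 and none for 9780; symbols were updated through Entrez identifiers with RefSeq GRCr8. One model over all 10 arrays was fitted (limma 3.58.1, R 4.3.3; 5 group means, eBayes, 11.4 degrees of freedom after moderation), with two-sided p-values adjusted by Benjamini-Hochberg over 22502 probe sets. The fit was tested on simulated data. The members and lists were chosen with earlier results of these data known. All member probe sets are reported. Partner genes are named if changed; in the KD mutant, up to 4 a list with the lowest adjusted p, plus Mfap2, Atp7a and Neu1, chosen after their values were seen. Likeness names the 5 genes of highest Pearson r for each member changed without the KD mutant. Alternatives covered filter, scaling, variance model, replicate block, arrays fitted and each array left out. Replicate numbers gave no clear pairing of arrays: deviations from group means correlated between -0.03 and 0.14 over 10 group pairs. Such low values cannot exclude a weak pairing.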

Additional observations from a re-analysis of the deposited data

How the results depend on the processing

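With 1 array left out at a time, which leaves 1 array in its group, assumed to vary like the others, the 2 changed members became 0 to 0 in the ED mutant against wild type, 0 to 0 against empty vector and 0 to 1 against the CD mutant. Fitting only the 4 arrays of the ED mutant and wild type gave 0 (adjusted p = 0.0543 for both genes, 9 members tested). The same kind of fit gave 2 against empty vector (adjusted p = 0.0206 for Fbln2 and 0.0164 for Ccdc80). Against the CD mutant it also gave 2 (adjusted p = 0.0351 and 0.0381). The replicate block, fitted although the numbers gave no clear pairing, gave 2 changed members in each of the 3 ED mutant comparisons and 11 for the KD mutant against wild type. Without the KD mutant arrays, 9 members were tested and the ED mutant against empty vector gave 3 in place of 2, adding Efemp2, with 320 of 19534 probe sets called in place of 119 of 22502. For the KD mutant against wild type, 8 to 13 members changed over the settings that kept all arrays of both groups. The number tested varied with the filter, from 9 at the 60th percentile to 14 without one. None of the 11 calls was lost in these settings where its probe set was tested. Fbln2 turned to 0.26 after centring each array on its median. Such centring shifts all differences of a comparison by the same amount. Array medians were 4.94 to 4.95 in the KD mutant and 5.34 to 5.35 in wild type. The cause of the lower medians was not tested. That centring gave 48.2% higher among called probe sets, against 38.5% as deposited. In the comparisons of wild type and the CD mutant with each other or with empty vector, 0 members changed under every setting run. Of 933 single differences recomputed, 25 lost a call, 3 gained one and 1 turned its sign and was called. The other 904 kept their side of the threshold, and 42 of these, uncalled in both fits, changed sign, 4 of them under another scaling; their sizes as reported were at most 0.18.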
